A study of Mus musculus with 16 samples.

Results

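The Hox genes encode homeodomain transcription factors and lie in the mouse genome in 4 clusters, Hoxa on chromosome 6, Hoxb on chromosome 11, Hoxc on chromosome 15 and Hoxd on chromosome 2. Every gene of the GENCODE M21 annotation whose symbol is Hoxa, Hoxb, Hoxc or Hoxd followed only by digits was taken, which gave 39 protein-coding genes among the 55421 genes of the deposited count files. The Hoxa cluster holds 11 of them, the Hoxb cluster 10, and the Hoxc and Hoxd clusters 9 each. Membership was set by gene names alone, but the Hox genes were chosen with earlier results of these data known. Values are given for 38 of the 39, and every sum and count below is over these 38.

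Hox genes carry a number from 1 to 13 that names their paralogue group, which is the set of genes descended from 1 ancestral gene before the clusters were duplicated. Low-numbered genes sit at the 3' end of each cluster and are the first to be switched on, in the posterior epiblast at gastrulation, under retinoic acid, Wnt and Fgf signals. High-numbered genes sit at the 5' end, come on later and mark progressively more posterior parts of the body, whereas in ESCs the clusters are covered by Polycomb repressive marks and are largely silent.

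The libraries were RNA-seq from mouse ESCs of the female F1 hybrid strain 129/Sv x Cast/Ei, either Wt or Spen-/-, in which CRISPR/Cas9 had removed the whole open-reading frame of Spen on both alleles. All lines carried a doxycycline-responsive promoter at Xist on the Cast X chromosome. In both genotypes, cells were collected at day 0 without doxycycline, at day 0 with doxycycline, at day 3 of monolayer differentiation without doxycycline, and at day 7 of differentiation with doxycycline. Each of these 8 conditions had 2 biological replicates, 16 libraries in all, and the labels do not say whether replicates came from separate clones.

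Doxycycline was given at 2 µg/mL for 4 days before differentiation and throughout it, and the treated cells were sorted for dsRed. Doxycycline and sorting therefore cannot be told apart, and neither can day 3 against day 7 and the absence against the presence of doxycycline. ESCs were grown on male irradiated mouse embryonic fibroblasts as feeders, which were removed by plating before differentiation. Genes took 7571566 to 14822867 reads per library, and 3 reads, the number used below as the limit that a count of 0 allows, corresponded to 0.193 to 0.409 CPM, the reads of a gene per 1000000 reads on genes. Spen itself was at 16.2 to 43.5 CPM in the 8 Wt libraries and at 0.129 to 5.45 CPM in the 8 Spen-/- libraries. Libraries made from very little RNA, as these were by Smart-seq2, detect low transcripts erratically, and the replicates correlated at r = 0.832 to 0.958 across the genes tested, which are not independent. The label mESC was given to all samples, and its marker Pou5f1 was at 286 to 515 CPM in the 8 day 0 libraries and at 19.8 to 52.9 CPM at day 7.

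The 250 bases upstream of the RefSeq start of Hoxb1 are shown because Hoxb1 had the most reads of the genes reported and is known to be autoregulated by complexes of HOX proteins with TALE cofactors, whose genes are described below. The sequence is from GRCm38.p6, plus strand, and capitals mark a match to TGATNNAT, a pattern bound by such complexes, whose first base lies 162 bases before the start.
Hoxb1, chr11:96365508-96365757: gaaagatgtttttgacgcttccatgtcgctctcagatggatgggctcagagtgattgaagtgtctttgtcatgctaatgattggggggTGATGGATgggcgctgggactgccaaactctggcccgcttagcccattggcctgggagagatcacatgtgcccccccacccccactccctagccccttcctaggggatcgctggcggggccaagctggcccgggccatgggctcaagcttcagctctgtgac

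On either strand, TGATNNAT was present in 4 of the 24 upstream windows matched to 22 Hox genes, against 7.68% of 32851 windows of that length from all genes. TTTATG, a pattern of CDX binding, was present in 5 of the 24 (10.8% of all windows), and AGGTCA, the retinoic acid receptor core, in 6 of the 24 (14.0% of all windows). The window of Hoxd1 held none of the 3 patterns. These matches are descriptions of letters in a window, and binding to them was not measured here.

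Short reads of related genes can be assigned to the wrong one where sequence is shared. Over the whole exons, none of the 2320 windows of 50 bases, the length of a read, in Hoxb1, of the 1813 in Hoxd1 or of the 2412 in Hoxc13 occurred in the exons of another annotated gene. In Hoxa9 36 of 5569 windows did, all in 1 gene that is not a Hox gene. Of the 38 genes, 9 held windows that occur in another Hox gene and 15 shared exon bases with another annotated gene, Hoxd3 (62.8%), Hoxb3 (52.9%) and Hoxd4 (52.3%) most. In Hoxb2 the share was 27.3%, all of it with a gene on the other strand. The values of these genes are uncertain where reads of overlapping genes were discarded or, without strand, assigned to a partner.

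Of the 38 Hox genes, 7 had no read in any library (Hoxa6, Hoxa11, Hoxa13, Hoxc8, Hoxc11, Hoxd10 and Hoxd12). A further 6 had reads in 1 library alone and 25 in 2 or more. At least 50 reads in a library were reached by 1 gene, Hoxb1, with 897 reads over all 16 libraries and at most 459 in one. The most-read genes of the Hoxc and Hoxd clusters were Hoxc13, with 158 reads, and Hoxd1, with 141, and of the Hoxa genes reported Hoxa9 had the most, 84. A filter on low counts, the filterByExpr function of edgeR, kept 10 of the 38 for testing (Hoxa5, Hoxa9, Hoxb1, Hoxb2, Hoxb7, Hoxb9, Hoxb13, Hoxc13, Hoxd1 and Hoxd8). The other 28 were not tested, so every count of tested members below leaves out most of the Hox genes.

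**Figure D1:**
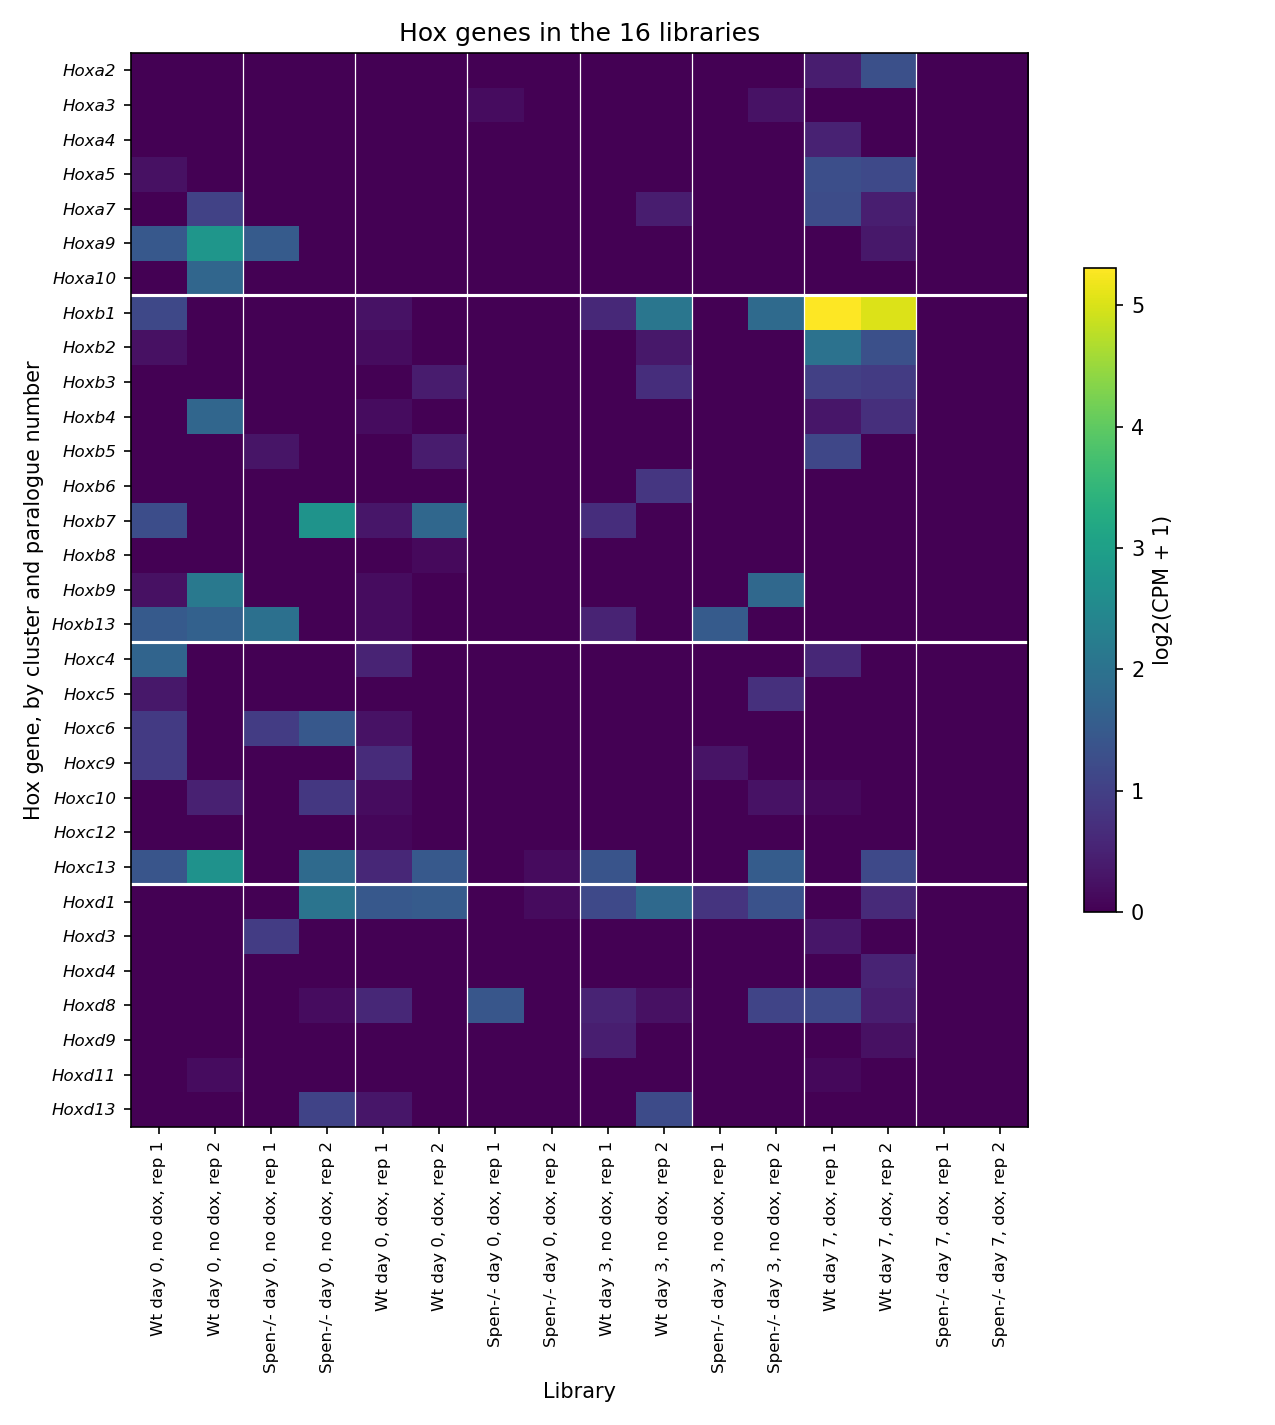
Level of Hox genes with reads in at least 1 library (rows, by cluster and paralogue number) in each of the 16 libraries (columns, by condition), coloured by log2(CPM + 1) with the darkest colour at 0. The 2 Wt day 7 columns carry the high values of Hoxb1 (38.6 and 31.8 CPM), and both Spen-/- day 7 columns are at 0 throughout.

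Summed over the 38 genes, the Wt cells at day 7 held 49.8 and 41.0 CPM of Hox transcript, a mean of 45.4 ± 6.27 CPM (SD, n = 2), and both Spen-/- day 7 libraries held 0. Every other library lay below both Wt day 7 libraries, the highest at 23.4 CPM, with means of 18.0 ± 7.64 CPM in Wt and 11.0 ± 5.83 CPM in Spen-/- cells at day 0 without doxycycline. With doxycycline at day 0 the sums were 6.12 ± 0.999 CPM in Wt and 1.02 ± 1.12 CPM in Spen-/- cells. At day 3 they were 7.24 ± 2.83 CPM in Wt and 6.74 ± 5.51 CPM in Spen-/- cells (SD, n = 2 in each). In the map of levels by gene and library, the day 0 reads are scattered over many genes and the Wt day 7 reads are gathered mostly in Hoxb1. In bulk libraries such as these, fewer cells that express a gene and less RNA of it per cell cannot be told apart.

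At day 7 in Wt cells, Hoxb1 made up 77.5% and 77.7% of the Hox reads in the replicates, against 9.66% and 0% in the Wt libraries at day 0 without doxycycline. Hoxb1, which patterns the hindbrain segment that gives rise to facial motor neurons, had 459 and 351 reads in the Wt day 7 libraries, or 38.6 and 31.8 CPM (35.2 ± 4.83, SD, n = 2). Its reads were 14 and 0 in Wt and 0 and 0 in Spen-/- cells at day 0 without doxycycline, and 3 and 0 in Wt and 0 and 0 in Spen-/- cells at day 0 with doxycycline. At day 3 it had 6 and 37 reads in Wt and 0 and 27 reads in Spen-/- cells, and at day 7 it had 0 and 0 in Spen-/- cells. Both Wt day 7 libraries therefore stood above all 14 others.

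Against the Wt cells at day 0 with doxycycline, 810 reads of Hoxb1 at day 7 stood against 3, a ratio of levels of 295 with an exact 95% interval of 101 to 1433 that covers counting error only. Hoxb1 did not pass the test across all genes (edgeR quasi-likelihood, Benjamini-Hochberg adjusted p = 0.122), and it passed under 2 of 23 alternative settings, with adjusted p from 0.000213 to 0.423. Of the 10 tested Hox genes, 0 were called at day 7 in Wt cells by edgeR or by DESeq2, where edgeR called 4.57% of the 18150 genes tested. At an unadjusted p under 0.05 there was 1 Hox gene (Hoxb1), and 16.9% of all genes. The median log2 change of the 10 was 0.36 as fitted, and 1.56 with 2 genes at 0 on one side set at the limit of 3 reads per library and 3 left out, against -0.00 as fitted over all genes tested. The 3 left out, Hoxa9, Hoxb9 and Hoxb13, were also at 0 on one side and had at most 3 reads in a library of the other. Their fitted changes were 3.55, -2.71 and -2.72. Some of the 10, such as Hoxa5 and Hoxb2, had 10 or more reads in Wt day 7 libraries alone and entered the test through them, so the median is a description.

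**Figure D2:**
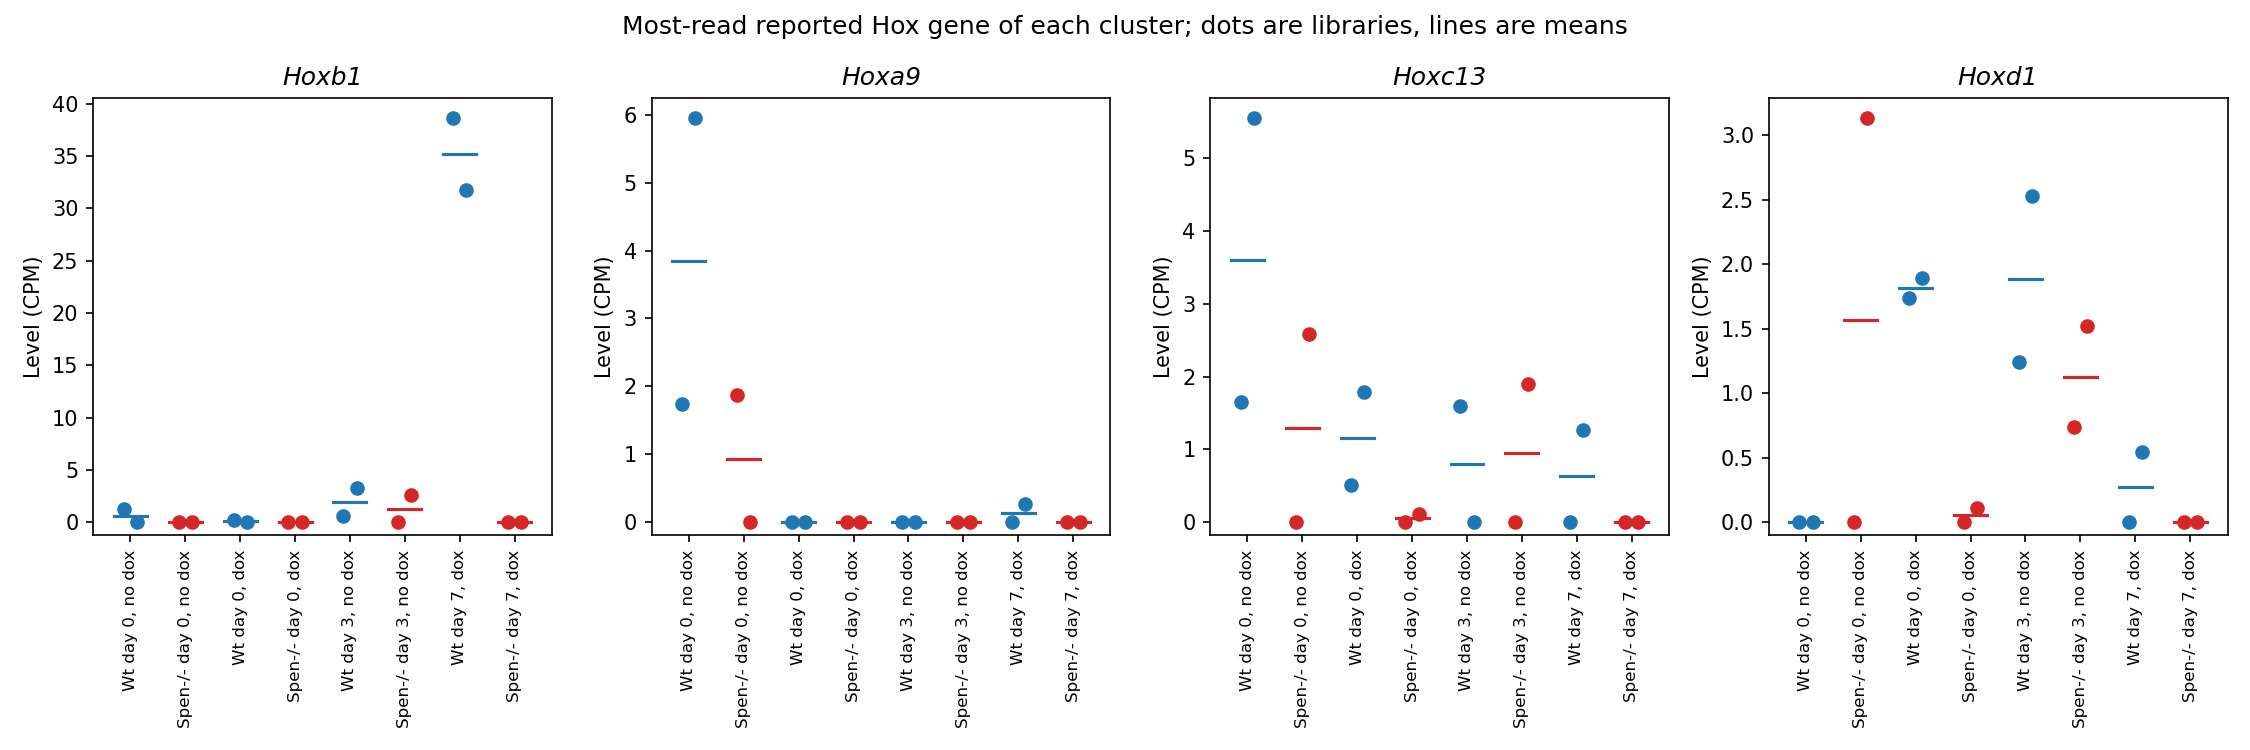
CPM of Hoxb1, Hoxa9, Hoxc13 and Hoxd1, the most-read gene of each cluster among those reported, in the 8 conditions, with dots for libraries and lines for means of the 2 replicates. Hoxb1 reaches 38.6 and 31.8 CPM in Wt day 7 cells, while Hoxa9, Hoxc13 and Hoxd1 stay at or below 5.95 CPM in every library.

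Hoxd1, the paralogue of Hoxb1 in the Hoxd cluster, was counted at 0 and 6 reads in Wt day 7 cells, or 0 and 0.544 CPM, and at 0 in Spen-/- day 7 cells. It had more reads before differentiation and at day 3, with 27 and 18 in Wt cells at day 0 with doxycycline, 14 and 29 in Wt cells at day 3, and 7 and 16 in Spen-/- cells at day 3. In the remaining groups it had 0 and 0 in Wt cells and 0 and 23 in Spen-/- cells at day 0 without doxycycline, and 0 and 1 in Spen-/- cells at day 0 with doxycycline. Hoxd1 was called in none of the 13 comparisons by edgeR. The Wt day 7 libraries, the highest for Hoxb1, thus lay below both Wt libraries at day 0 with doxycycline and all 4 day 3 libraries for Hoxd1.

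Of the other genes reported, Hoxb2, a hindbrain gene that neighbours Hoxb1, had the most reads in Wt day 7 cells, 36 and 16, or 3.03 and 1.45 CPM. Elsewhere it had 2 and 0 reads in Wt cells at day 0 both without and with doxycycline and 0 and 3 in Wt cells at day 3, and it had none in any Spen-/- library. Hoxa5, a gene of the lung and the axial skeleton, had 17 and 14 reads in Wt day 7 cells, or 1.43 and 1.27 CPM, and 2 reads in 1 Wt library at day 0 without doxycycline. It had no read in any of the remaining 13 libraries. Both genes were named after their values were seen, and for both the Wt day 7 libraries were the highest of the 16. Hoxb7, Hoxb9 and Hoxb13, also tested, had 91, 56 and 87 reads in all and none in Wt day 7 cells. Neither Hoxb2 nor Hoxa5 was called against day 0 with doxycycline (edgeR adjusted p = 0.394 for Hoxb2 and 0.307 for Hoxa5).

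Per kilobase of exon, the scale on which genes can be compared, Hoxb1 was at 16.6 and 13.7 CPM per kb in Wt day 7 cells. All below 1 CPM per kb were Hoxa5 at 0.762 and 0.676, Hoxb2 at 0.869 and 0.416, and Hoxa2 at 0.190 and 0.817, whose ranges overlapped one another.

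By paralogue number, the summed level in Wt day 7 cells was 35.5 ± 4.44 CPM for Hoxb1 and Hoxd1, 3.13 ± 0.330 CPM for the 2 genes of group 2, and 1.08 ± 0.252 CPM for the 3 genes of group 3. Group 4 was at 1.13 ± 0.0643 CPM, group 5 at 1.94 ± 0.948 CPM, group 7 at 0.855 ± 0.696 CPM and group 8 at 0.813 ± 0.637 CPM, while no read fell on the 3 genes of group 6 (SD, n = 2 in each). The ranges of groups 3, 4, 7 and 8 overlapped, and that of group 5 overlapped group 7 alone. These levels rest on 4 to 31 reads per library. Group 9 was at 0.227 ± 0.320 CPM, groups 10 and 11 held 1 read each in 1 library, group 12 held none, and group 13 was at 0.634 ± 0.897 CPM (SD, n = 2), all of it 14 reads of Hoxc13 in 1 library.

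In 3 classes of the genes reported, paralogue groups 1 to 3 held 43.3 and 36.2 CPM in Wt day 7 cells, groups 4 to 8 held 6.40 and 3.08 CPM, and groups 9 to 13 held 0.168 and 1.72 CPM. Reads were found in both Wt day 7 libraries for 4 of the 7 genes of groups 1 to 3, for 4 of the 15 genes of groups 4 to 8, and for 0 of the 16 genes of groups 9 to 13. In the first class these were Hoxb1, Hoxa2, Hoxb2 and Hoxb3, and in the second Hoxa5, Hoxa7, Hoxb4 and Hoxd8. By cluster, Hoxb held 44.1 and 34.8 CPM and Hoxa 3.54 and 3.35 CPM, whereas Hoxc held 0.589 and 1.27 CPM and Hoxd 1.60 and 1.54 CPM. In the plot by paralogue class, groups 1 to 3 make up most of the Wt day 7 bars, and at day 3 they were the largest class in 1 of the 4 libraries.

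**Figure D3:**
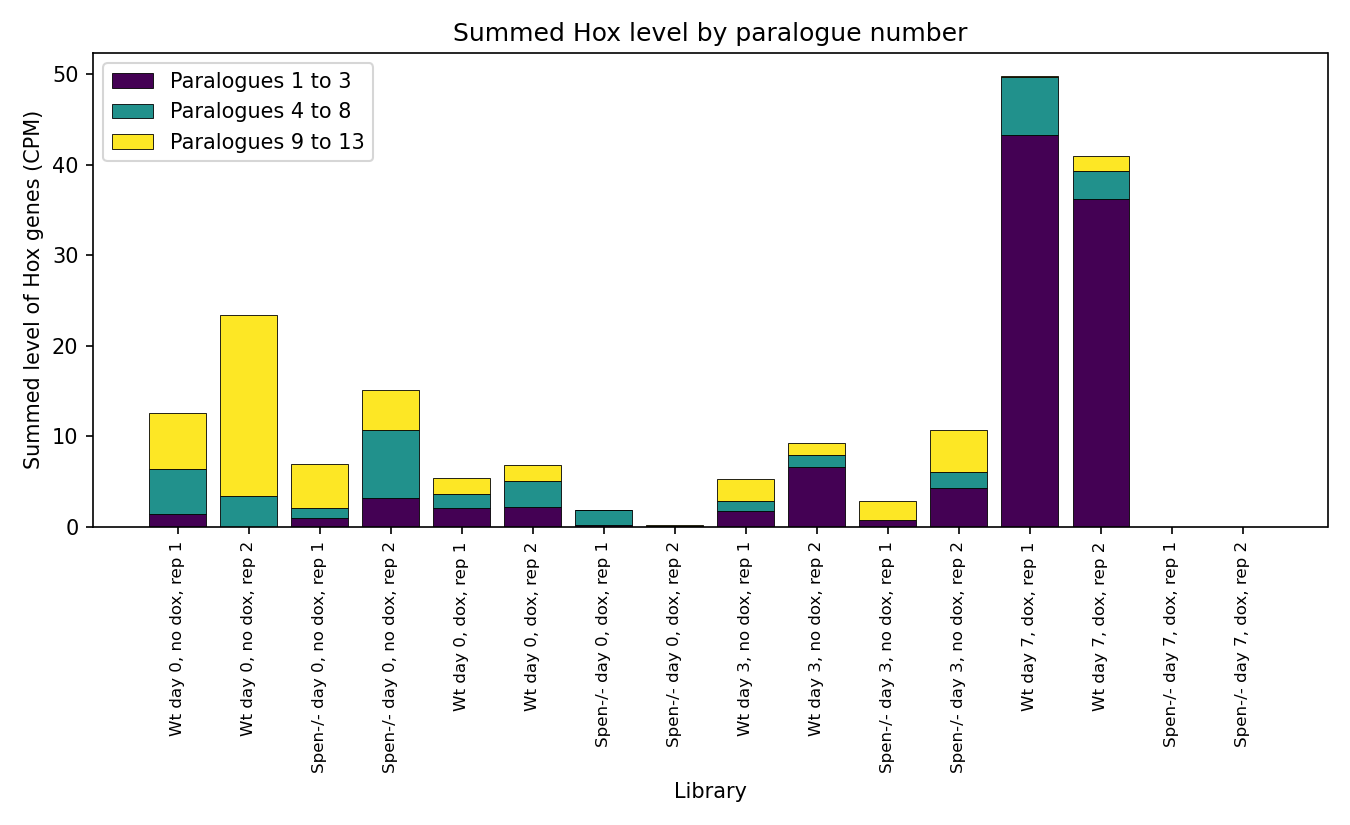
Summed CPM of the 38 Hox genes, by paralogue groups 1 to 3, 4 to 8 and 9 to 13 in each of the 16 libraries, as stacked bars starting at 0. In Wt day 7 cells groups 1 to 3 hold 43.3 and 36.2 CPM, in Wt cells at day 0 without doxycycline groups 9 to 13 hold 6.26 and 20.0 CPM, and the Spen-/- day 7 libraries have no bar.

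The comparison of Spen-/- with Wt cells at day 7 asks whether cells without SPEN differed in Hox expression after differentiation under doxycycline. All 38 Hox genes had 0 reads in both Spen-/- day 7 libraries, where 19 had reads in at least 1 Wt day 7 library. Hoxb1 was at least 95.9-fold lower in Spen-/- than in Wt cells, Hoxb2 at least 6.10-fold and Hoxa5 at least 3.68-fold, and none of these 3 passed (edgeR adjusted p = 0.0670 for Hoxb1, 0.189 for Hoxb2 and 0.244 for Hoxa5). At the lower of the Wt day 7 levels, the Spen-/- day 7 libraries would have held 247 and 274 reads of Hoxb1.

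In this comparison 0 of the 10 tested Hox genes were called by edgeR or by DESeq2, where edgeR called 7.11% of all genes tested. At an unadjusted p under 0.05 there were 2 (Hoxb1 and Hoxb2), both lower in Spen-/- cells, and 23.5% of all genes. Of these 2, Hoxb2 entered the test through the Wt day 7 libraries alone. Since all 10 were at 0 in Spen-/- cells, and 3 of them (Hoxb7, Hoxb9 and Hoxb13) in Wt cells too, no median of their differences is given. Hoxb1 passed under 5 of the 23 alternatives, with adjusted p from 1.19e-05 to 0.190. Whether the change from day 0 to day 7 differed between genotypes could not be estimated for 7 of the 10, Hoxb1 among them, because all 4 Spen-/- libraries with doxycycline held no read of them. For the 3 others, Hoxc13, Hoxd1 and Hoxd8, edgeR and DESeq2 called 0, with 0 at an unadjusted p under 0.05, where edgeR called 2.01% of all genes and 14% were under the unadjusted limit.

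Counts of 0 in both Spen-/- day 7 libraries were frequent among all genes. These libraries detected 15324 and 14969 genes, against at least 16952 in each of the other 14 libraries. Of 17861 genes with at least 1 read in both Wt day 7 libraries, 3063 (17.1%) had no read in either Spen-/- day 7 library, which held for 8 of 8 Hox genes. With at least 10 reads in both Wt libraries the share was 8.42% of 13550 genes and 4 of 4 Hox genes, and with at least 100 reads it was 1.79% of 9092 genes and 1 of 1 Hox gene, Hoxb1. The share fell as the limit rose, and each share covers all levels above its limit. Hoxb3, Hoxa5 and Hoxb2 lay near the limit of 10, at 10 to 36 reads. The shares are therefore not matched to the levels of the Hox genes. In the opposite direction, 1.66% of 12545 genes with reads in both Spen-/- libraries were at 0 in both Wt libraries. The part of the lower detection in the Hox counts of 0 was not tested.

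At day 3, without doxycycline, the mean level of Hoxb1 was 3.09-fold higher than at day 0 in Wt cells, where its day 0 level rested on 14 reads of 1 library. In Spen-/- cells Hoxb1 had 0 and 27 reads at day 3 and 0 at day 0. No bound on its rise is given there, since 1 of the day 3 libraries held no read. Hoxb1 passed in neither genotype (edgeR adjusted p = 0.797 in Wt and 0.398 in Spen-/- cells) and made up 26.1% of the Hox reads of Wt cells at day 3 and 19.4% of those of Spen-/- cells. By edgeR 0 of the 10 tested Hox genes were called at day 3 in Wt cells, with 2 (Hoxd1 and Hoxa9) at an unadjusted p under 0.05, where 1.38% of all genes were called and 13.4% were under the unadjusted limit. In Spen-/- cells 0 were called, with 0 at an unadjusted p under 0.05 and 2 of the 10 (Hoxa5 and Hoxb2) without a read in either group, where the shares of all genes were 1.23% and 13.1%. DESeq2 called 0 in both. Setting Spen-/- against Wt cells at day 3, edgeR called 0 Hox genes and 0% of all genes, with 585 genes (3.22%) and 0 Hox genes at an unadjusted p under 0.05, and DESeq2 called 10 genes and 0 Hox genes.

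Before differentiation, 5 of the 8 libraries held reads of all 3 classes, and none had more than 14 reads of Hoxb1. In Wt cells at day 0 without doxycycline, groups 9 to 13 held 6.26 and 20.0 CPM, and in Spen-/- cells 4.79 and 4.50 CPM. With doxycycline they held 1.80 and 1.79 CPM in Wt cells and 0 and 0.112 CPM in Spen-/- cells. Hoxc13, a gene of skin appendages and the most-read gene of the Hoxc cluster, had 19 and 42 reads in Wt cells and 0 and 19 in Spen-/- cells without doxycycline. With doxycycline it had 8 and 17 reads in Wt and 0 and 1 in Spen-/- cells. At day 3 it had 18 and 0 reads in Wt and 0 and 20 in Spen-/- cells, and at day 7 0 and 14 in Wt and 0 and 0 in Spen-/- cells. The groups overlapped, and 1 replicate was at 0 while the other had reads in 5 of the 8 conditions.

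Hoxa9, a gene of the posterior trunk, had 20 and 45 reads in Wt cells at day 0 without doxycycline and 16 and 0 in Spen-/- cells, and no reads at day 0 with doxycycline, at day 3 or in Spen-/- day 7 cells. At day 7 in Wt cells it had 0 and 3 reads. Such disagreement between replicates was common among the Hox genes. In Wt cells at day 0 without doxycycline, 7 Hox genes had at least 10 reads in 1 replicate and 0 in the other, and 3 had at least 10 in both. In Spen-/- cells these numbers were 5 and 0, whereas in Wt day 7 cells they were 2 and 4. Of all genes, 1886 had at least 10 reads in 1 replicate and 0 in the other in the Wt condition, 1964 in the Spen-/- condition and 749 in Wt day 7. Far more genes, 12540, 11974 and 13550 in the same order, had at least 10 reads in both replicates. Those are genes of all levels, whereas no Hox gene but Hoxb1 reached 50 reads in a library, so the counts are not matched for level. The Hox numbers at day 0 with doxycycline were 0 and 1 in Wt and 1 and 0 in Spen-/- cells. At day 3 they were 2 and 1 in Wt and 5 and 0 in Spen-/- cells, and in Spen-/- day 7 cells 0 and 0.

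Of 13 fibroblast markers, edgeR called 0 for doxycycline against none at day 0 in either genotype. At an unadjusted p under 0.05 there were 3 in Wt and 7 in Spen-/- cells, and DESeq2 called 0 and 4. Among all genes, edgeR called 0.149% in Wt and 0.0716% in Spen-/- cells, with 7.15% and 8.09% under the unadjusted limit. Reads were found for 12 or 13 of 13 fibroblast markers in the 4 day 0 libraries without doxycycline and for 6 to 12 in the 4 sorted ones. Their summed level was 225 and 87.4 CPM in Wt and 182 and 170 CPM in Spen-/- cells at day 0 without doxycycline, and 19.2 to 67.0 CPM in the 4 sorted day 0 libraries. The 4 Y-linked markers, which female cells lack, summed to 3.62 to 18.1 CPM without doxycycline, to 0.129 to 5.78 CPM with it, and to at most 0.533 CPM at days 3 and 7. Within the Wt cells at day 0 without doxycycline, the replicate with more reads of groups 9 to 13 had the lower fibroblast sum. Its Y-linked sum was the higher, at 15.9 CPM against 8.52 CPM. At day 7 the fibroblast markers summed to 154 and 117 CPM in Wt, with 11 and 10 markers detected, and 102 and 50.5 CPM in Spen-/- cells, with 4 and 5 detected. The part of feeder cells in the Hox reads was not tested.

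The remaining comparisons held no Hox call by edgeR or by DESeq2. For doxycycline against none at day 0 in Wt cells, 0 of 10 Hox genes were called and 2 (Hoxa9 and Hoxd1) had an unadjusted p under 0.05, where 0.149% of all genes were called and 7.15% were under the unadjusted limit. In Spen-/- cells both numbers were 0, with 4 of the 10 without a read in either group, where the shares of all genes were 0.0716% and 8.09%. Between genotypes at day 0 without doxycycline, 0 were called and 1 (Hoxd1) was under the unadjusted limit, where 0% of all genes were called (38 genes by DESeq2) and 4.56%, or 828 genes, were under that limit. With doxycycline both numbers were 0, and the shares of all genes were 0.0826% and 10.2%. For Spen-/- cells from day 0 to day 7 both were 0 as well, but 7 of the 10 had no read in either group and could not be called, where 8.33% of all genes were called and 24.5% were under the unadjusted limit.

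The test of a genotype difference in the change to day 3 called 0% of all genes (2 genes by DESeq2) and 0 Hox genes, with 622 genes (3.43%) and 2 Hox genes (Hoxd1 and Hoxb9) at an unadjusted p under 0.05. For the genotype difference in the change with doxycycline at day 0 it called 0% of all genes (65 genes by DESeq2) and 0 Hox genes, with 1058 genes (5.83%) and 1 Hox gene (Hoxd1) at an unadjusted p under 0.05. In these tests 3 and 5 of the 10 Hox genes had no read in either of a pair of groups compared and could not be called, and the same held for 2 of the 10 between genotypes at day 0 with doxycycline and at day 3.

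Reads that cover a polymorphism can be assigned to the 129 or the Cast allele. In Wt day 7 cells Hoxb1 had 33 and 15 reads of the 129 allele and 13 and 12 of the Cast allele, so reads of both parental copies were present in both replicates. The Cast share was 0.283 (Wilson 95% interval 0.173 to 0.425) in replicate 1 and 0.444 (0.276 to 0.627) in replicate 2, intervals that overlap and that cover counting error only. Hoxd1 had at most 8 such reads in a library. In Wt cells at day 0 with doxycycline it had 1 and 8 of the 129 allele and 5 and 0 of the Cast allele. In Wt cells at day 3 it had 0 and 0 against 5 and 5. The alleles of Hoxd1 thus differed between replicates at day 0 with doxycycline, and the cause was not tested.

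Genes that act on the Hox clusters were measured in the same libraries. Among 14 posterior inducers and axial genes, of which 12 were tested, 1 was called higher and 0 lower in Wt cells at day 7 against day 0 with doxycycline, and 0 higher and 3 lower in Spen-/- against Wt cells at day 7. Over all genes tested, edgeR called 4.57% in the former comparison and 7.11% in the latter. T (Brachyury), the primitive streak and early mesoderm factor, was at 192 and 211 CPM in Wt and at 0 and 0 in Spen-/- day 7 cells, at least 549-fold lower (edgeR adjusted p = 0.000312). Cdx2, a direct activator of central and posterior Hox genes, was at 16.1 and 14.3 CPM in Wt and at 0 and 0 in Spen-/- day 7 cells, at least 41.4-fold lower (edgeR adjusted p = 0.0393, held under 13 of 23 alternatives). Fgf8, a signal of the streak and tail bud, was at 121 and 111 CPM in Wt and at 6.04 and 0 CPM in Spen-/- day 7 cells (edgeR adjusted p = 0.0199). The median log2 difference of the 12 genes was -6.59 as fitted, and -3.40 with the 8 genes at 0 in Spen-/- cells set at the limit of 3 reads per library and 1 gene left out, against -0.14 over all genes tested. Genes high in Wt day 7 cells could enter the test through those libraries, so this median is a description.

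At day 3 T, Cdx2 and Fgf8 were present in both genotypes, T at 31.4 and 27.9 CPM in Wt and 17.7 and 25.8 CPM in Spen-/- cells, and Cdx2 at 1.42 and 1.66 CPM in Wt and 7.05 and 1.52 CPM in Spen-/- cells. Fgf8 was at 169 and 120 CPM in Wt and 103 and 128 CPM in Spen-/- cells. Against day 0, edgeR called 1 of the 12 genes at day 3 in Wt cells, Fgf8, higher by 5.46 on the log2 scale (edgeR adjusted p = 0.0485), a call that held under 9 of 23 alternatives (adjusted p up to 0.351). At an unadjusted p under 0.05 there were 4 genes in Wt cells, and DESeq2 called 3. In Spen-/- cells edgeR called 0, with 5 at an unadjusted p under 0.05, and DESeq2 called 4. Among all genes, edgeR called 1.38% in Wt and 1.23% in Spen-/- cells, with 13.4% and 13.1% under the unadjusted limit. The values of both genotypes overlapped for Fgf8 and Cdx2 and did not for T, and 0 of the 12 were called between genotypes at day 3 by edgeR or DESeq2, with 0 at an unadjusted p under 0.05.

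**Figure D4:**
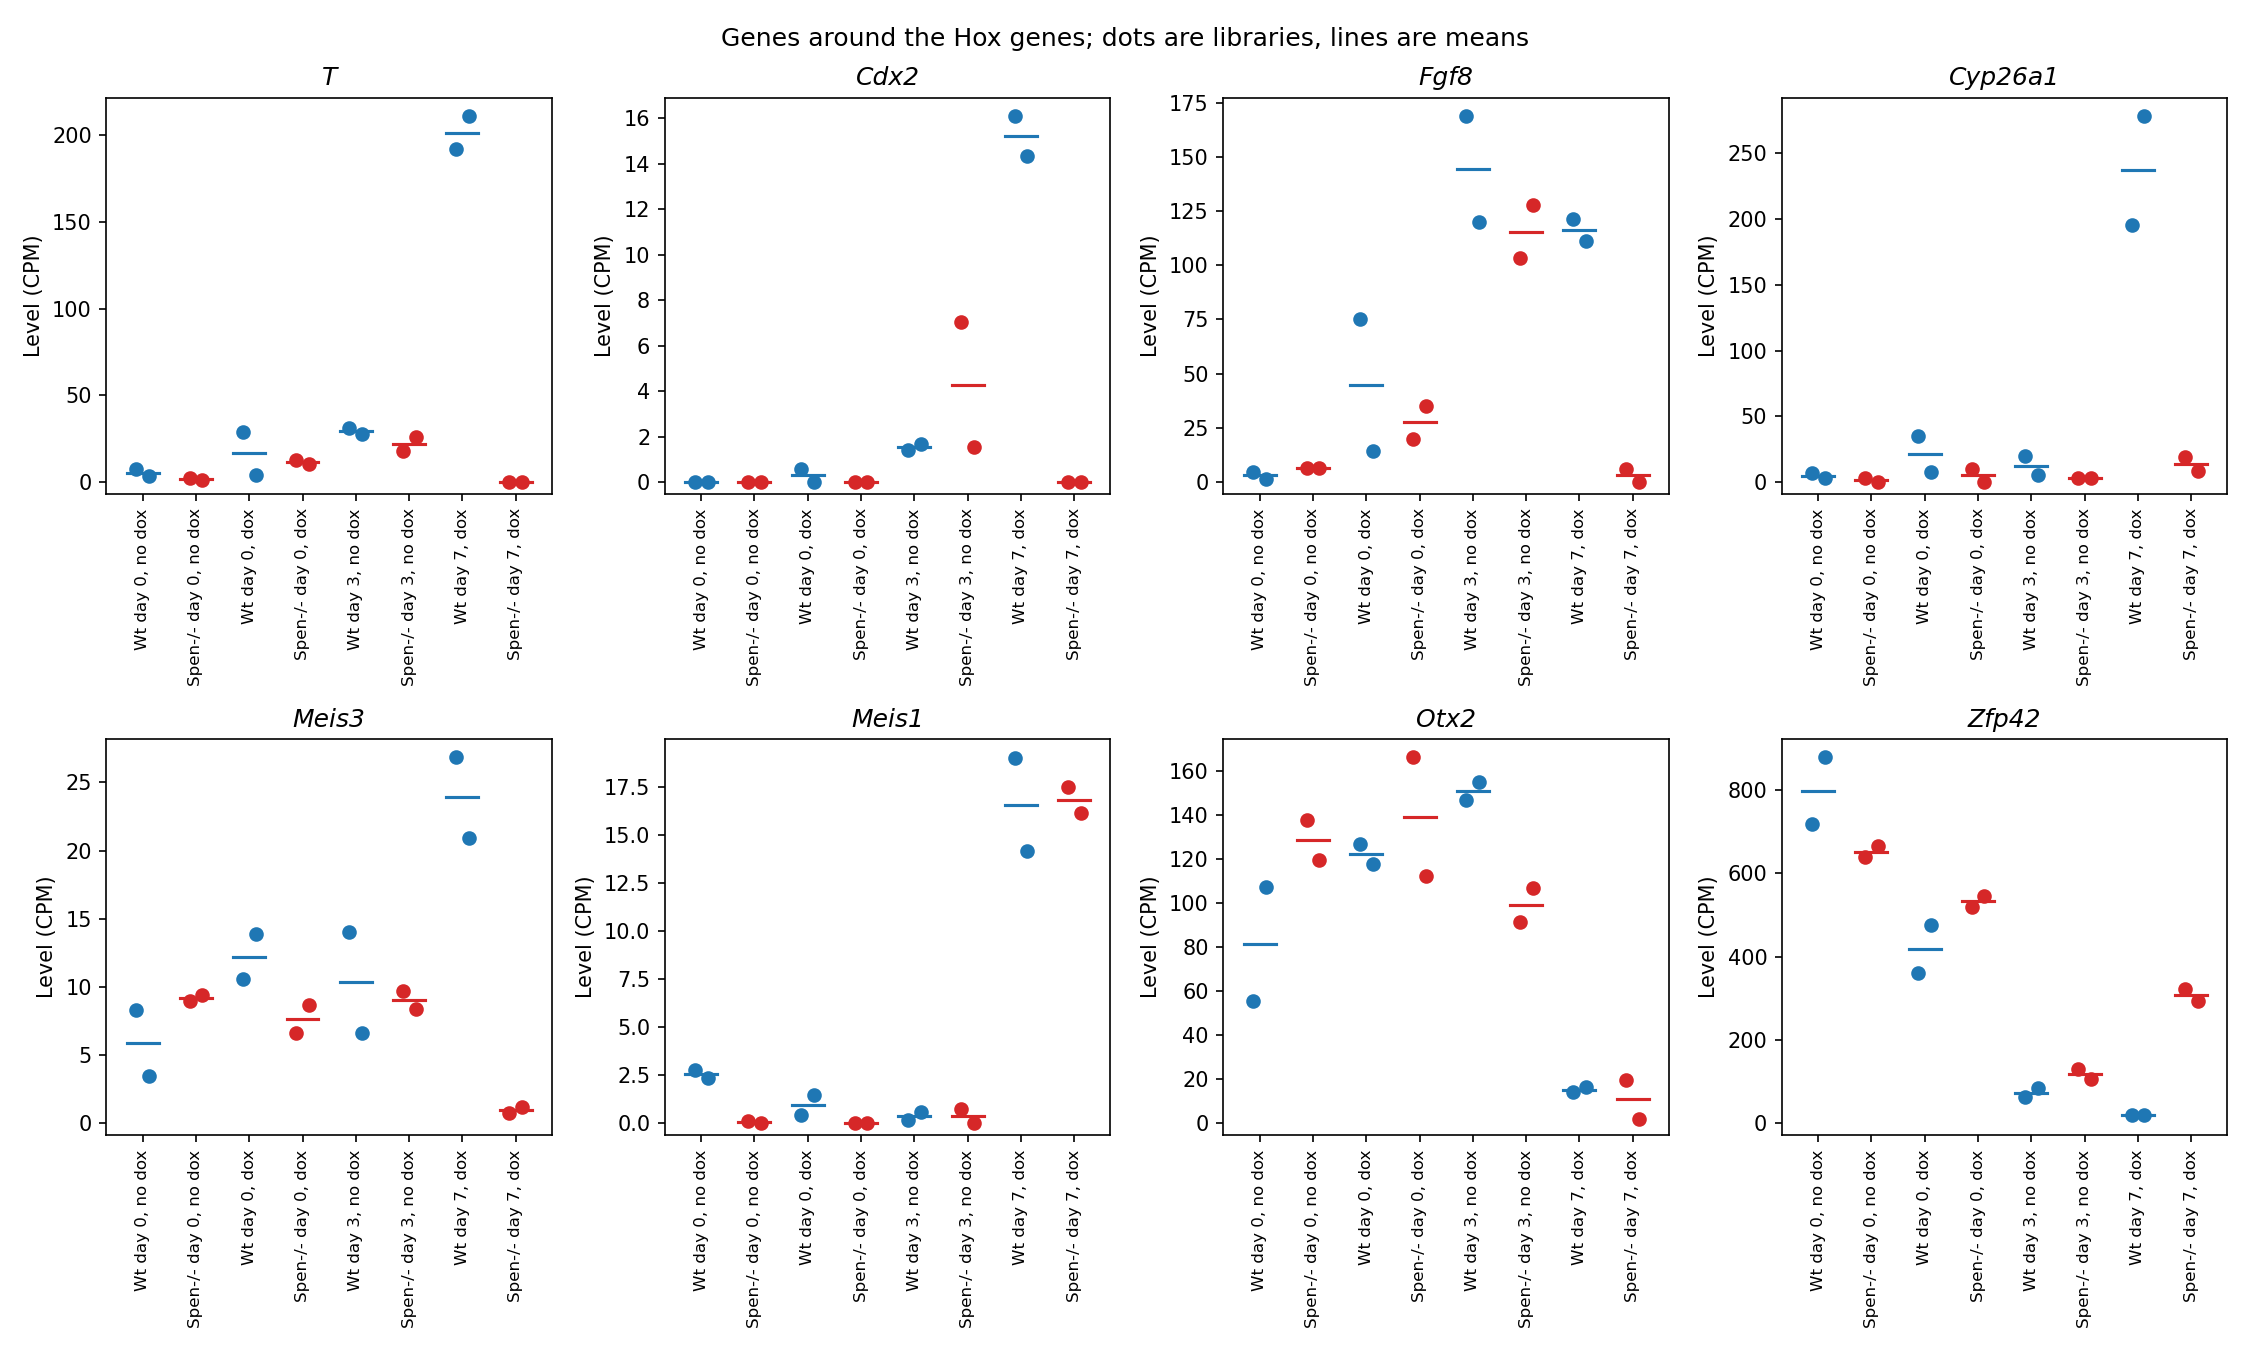
CPM of T, Cdx2, Fgf8, Cyp26a1, Meis3, Meis1, Otx2 and Zfp42 in the 8 conditions, with dots for libraries and lines for means of the 2 replicates. T and Cdx2 are at 0 in both Spen-/- day 7 libraries, and Zfp42 is at 18.9 CPM in both Wt and at 323 and 293 CPM in Spen-/- day 7 libraries.

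Of 18 genes of the retinoic acid pathway, 16 were tested. Between genotypes at day 7, 0 were called higher and 3 lower in Spen-/- cells, where edgeR called 7.11% of all genes. The 3 were Rxra, a partner subunit of retinoic acid receptors, at 7.24 and 10.3 CPM in Wt and 0.386 and 0.465 CPM in Spen-/- cells (log2 difference -4.33, edgeR adjusted p = 0.00274), its relative Rxrg, at 1.01 and 1.81 CPM against 0 and 0, and Crabp1, a retinoic acid carrier, at 11.5 and 5.17 CPM against 0 and 0. The median log2 difference of the 16 genes was -1.51. Cyp26a1, the enzyme that degrades retinoic acid and is itself induced by it, was at 196 and 278 CPM in Wt and 19.2 and 8.37 CPM in Spen-/- day 7 cells, groups that do not overlap, and did not pass (edgeR adjusted p = 0.129). Rarb, a receptor gene that retinoic acid induces, was at 4.55 and 2.63 CPM in Wt and at 0 and 0 in Spen-/- day 7 cells and did not pass (edgeR adjusted p = 0.171). From day 0 to day 7 in Wt cells 0 of the 16 were called by edgeR (5 at an unadjusted p under 0.05, 4 called by DESeq2), and in Spen-/- cells 1 was called higher (Dhrs3) and 3 lower. The shares of all genes called were 4.57% in Wt, with 16.9% under the unadjusted limit, and 8.33% in Spen-/- cells.

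The TALE cofactors bind DNA together with HOX proteins. Of 8 tested, 1 was called between genotypes at day 7, Meis3, at 26.9 and 20.9 CPM in Wt and 0.771 and 1.16 CPM in Spen-/- cells (log2 difference -4.61, SE 0.72, edgeR adjusted p = 0.00270). Meis1, in contrast, was at 19.0 and 14.1 CPM in Wt and 17.5 and 16.2 CPM in Spen-/- cells, groups that overlap. The median log2 difference of the 8 genes was -0.75, and edgeR called 7.11% of all genes between genotypes at day 7. Of the noncoding transcripts in the Hox clusters, 4 of 9 were tested and 0 were called in any of the 13 comparisons by edgeR or DESeq2, with 3 at an unadjusted p under 0.05 in Wt cells from day 0 to day 7 and 2 between genotypes at day 7. The unadjusted shares of all genes were 16.9% in the former comparison and 23.5% in the latter. Hoxaas2 was at 4.04 and 2.18 CPM in Wt day 7 cells, Hoxb3os at 2.53 and 2.36 CPM, and both were at 0 in the Spen-/- day 7 libraries, whereas Hotairm1 was at 3.20 and 4.62 CPM in Wt and 2.31 and 0 CPM in Spen-/- cells.

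All of 13 trithorax and Polycomb regulators of Hox genes were tested, with a median log2 difference of 0.16 between genotypes at day 7. There, 1 was called higher in Spen-/- than in Wt cells and 0 lower, where edgeR called 7.11% of all genes. The called gene was Eed, a core subunit of Polycomb repressive complex 2, at 123 and 171 CPM in Wt and 366 and 448 CPM in Spen-/- cells (log2 difference 1.47, edgeR adjusted p = 0.00492). From day 0 to day 7 in Wt cells 3 fell and 0 rose, Eed (held under 13 of 23 alternatives), Jarid2 and Cbx7, and in Spen-/- cells 1 fell, Jarid2. The shares of all genes called were 4.57% in Wt and 8.33% in Spen-/- cells. Of 10 anterior homeobox genes outside the clusters, 6 were tested. Otx2, of the forebrain and midbrain, fell in both genotypes from day 0 to day 7, by 3.00 on the log2 scale in Wt (edgeR adjusted p = 0.0272) and by 3.69 in Spen-/- cells. Hesx1 fell in both as well, a call that held under 17 of 23 alternatives in Wt and 10 of 23 in Spen-/- cells. Between genotypes at day 7, 1 of the 6 was called higher in Spen-/- cells, Hesx1 (log2 difference 2.42, edgeR adjusted p = 0.0319), and 0 lower, with 3 at an unadjusted p under 0.05 and 2 called by DESeq2. There edgeR called 7.11% of all genes, and 23.5% were under the unadjusted limit. The median log2 difference of the 6 was -4.39 as fitted, and -0.90 with 3 genes at 0 in Spen-/- cells set at the limit of 3 reads per library and 1 left out. The list summed to 63.8 and 59.5 CPM in Wt and 28.0 and 13.9 CPM in Spen-/- day 7 cells.

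Markers of other cell states also differed at day 7. Of 10 pluripotent cell markers, 6 were called higher and 1 lower in Spen-/- than in Wt cells, with a median log2 difference of 1.85. Over all genes tested, edgeR called 7.11% between genotypes at day 7, and 23.5% were at an unadjusted p under 0.05. Zfp42, a marker of the naive state, was at 18.9 and 18.9 CPM in Wt and 323 and 293 CPM in Spen-/- cells (log2 difference 4.02, SE 0.23), and Nanog was at 41.8 and 54.1 against 137 and 174 CPM. Pou5f1 went the other way, at 52.9 and 48.1 CPM in Wt and 29.7 and 19.8 CPM in Spen-/- cells (log2 difference -1.03, edgeR adjusted p = 0.0465). That call held under 8 of 23 alternatives and under 3 of the 16 fits without 1 library, with adjusted p up to 0.214. Between the genotypes at day 7, 0 of 7 tested endoderm markers were called by edgeR (3 at an unadjusted p under 0.05, 1 called by DESeq2). Their median log2 difference was -3.11, and the endoderm list summed to 167 and 141 CPM in Wt and 18.5 and 44.3 CPM in Spen-/- cells. Gata6 alone was at 5.72 and 4.26 CPM in Wt and 5.79 and 4.42 CPM in Spen-/- cells. Of 8 tested cardiac and mesoderm markers 1 was called lower (Meox1, at least 108-fold lower, edgeR adjusted p = 0.0241). At an unadjusted p under 0.05 there were 7, and DESeq2 called 3. The cardiac and mesoderm list summed to 98.6 and 78.3 CPM in Wt day 7 libraries and to at most 19.7 CPM in any other. Its genes could thus enter the test through the Wt day 7 libraries, so their median difference is a description. The median log2 difference of the 8 was -8.41 as fitted. With 5 genes at 0 on one side set at the limit of 3 reads per library it was -4.07. Of 13 fibroblast markers 0 were called higher and 3 lower, with 6 at an unadjusted p under 0.05 and 5 called by DESeq2. Their median was -4.46 as fitted, and -2.62 with 5 genes set at that limit and 2 left out. Col1a1 was not called, at 55.5 and 49.9 CPM in Wt and 66.9 and 45.9 CPM in Spen-/- cells. The neural and Y-linked lists, with 4 and 2 genes tested, had 0 calls in this comparison by edgeR and by DESeq2 and 0 genes at an unadjusted p under 0.05. The part of these cell states in the Hox counts at day 7 was not tested.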

How the data were processed

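The authors aligned 50-base single-end Smart-seq2 reads to mm10 with SNPs of 129/Sv and Cast/Ei masked (HISAT2 2.2.1, SAMtools 1.10), split them by allele with SNPsplit, and counted them per Ensembl gene with HTSeq 0.12.4. The deposited read counts of the 129, Cast and unassigned files were added per gene to give raw total counts. Whether reads were counted by strand is not given in the sources used here.

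All 18150 genes passing filterByExpr of edgeR 4.0.16 (minimum count 10, minimum total 15) were fitted once over the 16 libraries, with TMM normalisation and the quasi-likelihood test, in R 4.3.3. Of the gene identifiers, 55154 of 55421 matched GENCODE M21. P-values were adjusted by Benjamini-Hochberg over all genes tested in each of 13 comparisons, at a threshold of 0.05. The comparisons were day 3 and day 7 against day 0 and doxycycline against none in each genotype, Spen-/- against Wt in each of 4 conditions, and 3 genotype differences in these changes. CPM used TMM-scaled library sizes. Reads outside a single gene were 31.6% to 45.4% of each library and were left out of library sizes. Intervals and the limit of 3 counts cover counting error only, since the reads carry no molecular identifiers.

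Alternatives were RLE factors, DESeq2 1.42.0, no filter, a minimum count of 30, a replicate block, robust dispersion, the compared libraries alone, and leaving out each of 16 libraries. The fit was tested on simulated data. Hox genes named with every value were those called in any comparison (of those reported, none) and the most-read gene of each cluster among those reported. Others are given by totals or ranges, or were named after their values were seen to list the members of a count. Hoxb2 and Hoxa5 were likewise named after their values were seen. Of the 12 lists (126 genes), up to 4 called genes per list and comparison were named, with Pou5f1, Nanog, Gata6, Cdx2, T, Cyp26a1, Rarb, Otx2 and Col1a1; Meis1, the day 3 values of Fgf8, Hoxaas2, Hoxb3os and Hotairm1 were added after their values were seen. The members and lists were chosen with earlier results of these data known. The replicate numbers did not pair samples: deviations of same-numbered libraries correlated at a median of 0.00876 over 28 pairs of conditions, from -0.0610 to 0.146, with 1 over 0.1. Promoter sequences came from RefSeq (GRCm38.p6). Of the genes chosen, 1 Hox gene and 1 gene of the lists are not reported here.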

Additional observations from a re-analysis of the deposited data

Results flagged for a closer look

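In the change from day 0 to day 7 with doxycycline, 5 genes of the related lists differed between the genotypes by the test of that difference (edgeR quasi-likelihood test, Benjamini-Hochberg adjusted over 18150 genes). Zfp42 was at 361 and 477 CPM at day 0 and 18.9 and 18.9 CPM at day 7 in Wt cells, and at 519 and 547 CPM and then 323 and 293 CPM in Spen-/- cells, a difference between the log2 changes of 3.68 (adjusted p = 0.000225), and passed under 23 of 23 alternatives. Rxra fell in Spen-/- cells, and the difference of its log2 changes was -4.79 (adjusted p = 0.0161, passing under 19 of 23). For T the fitted difference was -13.44 (adjusted p = 0.00303, 22 of 23), for Crabp1 -8.36 (adjusted p = 0.0183, 19 of 23), and for Twist1 -9.10 (adjusted p = 0.0448, 3 of 23). These last 3 genes had 0 reads in both Spen-/- day 7 libraries, so their fitted values depend on the prior count and are no bound.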

How the results depend on the processing

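The Hox values rested on few reads, and each group had 2 libraries. Among the Hox genes reported, the number called was 0 at day 7 against day 0 in Wt cells and 0 between genotypes at day 7, and each stayed 0 with RLE factors, DESeq2, a minimum count of 30, robust dispersion and a replicate block. Without a filter on low counts both numbers were 1 (Hoxb1). With the compared libraries alone they were 1 (Hoxb1) for Wt day 7 and 0 between genotypes at day 7. Leaving out 1 library at a time gave 0 calls for Wt day 7 throughout and 0 to 1 calls between genotypes at day 7, where Hoxb1 was called without either Wt library at day 0 without doxycycline or either Spen-/- library at day 3. The cause of these calls was not tested. The direction of Hoxb1 turned in 2 comparisons at day 3. Its log2 change in Wt cells was 1.56 and became -0.24 without Wt replicate 2 of day 3, in a range of -0.24 to 7.22 over the libraries left out. Its log2 difference between genotypes at day 3 became 1.26 without that library and 0.44 without Spen-/- replicate 1 of day 3, in a range of -7.23 to 1.26. The values of 7.22 and -7.23 stand against groups with no read and are no bound. The cause of these turns was not tested. The replicate block changed no count of Hox calls, in keeping with numbers that do not pair the samples. At 7571566 to 14822867 reads per library, a gene with no read may have stood at up to 0.409 CPM.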
